A study of Mus musculus with 9 samples.

Results

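The genes described here make up the transcriptional response to the factor ATF4 and the synthesis and charging of amino acids: 36 genes were listed, 35 of them were found and measured among the 18193 genes of the array table, and all 35 found were among the 15235 genes tested. A listed gene was found by its symbol among the probe sets (groups of short probes for 1 transcript) that the platform annotation ties to a single gene. Its value is that of its brightest such probe set, by the mean over the 9 arrays, and methionyl-tRNA synthetase was found as Mars1. Pycr1, which encodes an enzyme of proline synthesis, was not analysed here. The list was drawn up by gene function: 7 transcription factors and their regulators, 7 stress effectors and feedback genes, 10 enzymes of amino acid synthesis and folate metabolism, of which 9 were measured, and 12 cytosolic tRNA synthetases.

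The samples were cultures of the mouse pancreatic cancer cell line 170#3, of mixed C57BL6 x FVB x 129Sv background, grown as a monolayer in DMEM with fetal bovine serum. Each group was stably transfected, and there were 3 groups of 3 arrays: control cells, cells expressing beta-catenin (Ctnnb1), the co-activator of Wnt target genes, and cells expressing ICAT, the product of Ctnnbip1, which binds beta-catenin and keeps it from TCF factors. The series asks which genes beta-catenin regulates in these cells. The control transfection, the vectors and promoters and whether a line is 1 clone are stated in none of the sources used here. One cell line was used, and the labels call the 3 arrays of a group biological replicates without saying that they come from separate transfections, so p-values measure the spread between these samples alone, which may be technical.

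ATF4 is the main transcription factor of the integrated stress response. Kinases that sense amino acid shortage, endoplasmic reticulum stress, viral RNA or haem shortage phosphorylate the translation factor eIF2, which lowers protein synthesis in general while the Atf4 message is translated more. ATF4 pairs with C/EBP proteins and induces genes for amino acid uptake, synthesis and tRNA charging, and also genes for feedback (Trib3, Ppp1r15a) and for cell death (Ddit3). Since ATF4 is controlled in large part by translation, the Atf4 transcript measured here is not a measure of ATF4 protein.

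Pairs of ATF4 and a C/EBP protein bind an element written TGATGNAA, where N is any base. RefSeq promoter windows of 300 bases (250 before to 50 after the start site, build GRCm38.p6) matched 29 of the 35 genes. On either strand 10 of the 29 (34.5%) held the element, and 1219 of 27025 genes with a window (4.51%) did. The genes with a match were Nupr1, Trib3, Chac1, Vldlr, Asns, Aars, Gars, Iars, Tars and Yars, and Aars held 2. Many genes of the list are known as ATF4 targets and were listed for that, so the share describes the list and is no test of it. The stretches shown are those around the match in the 6 of these genes with the largest called difference in any comparison, 5′ to 3′ on the strand of the gene, with the match in capitals. TTGCATCA and TTACATCA are the element on the opposite strand.
Vldlr: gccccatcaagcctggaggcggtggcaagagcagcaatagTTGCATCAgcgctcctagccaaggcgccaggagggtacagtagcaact
Trib3: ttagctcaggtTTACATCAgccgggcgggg
Chac1: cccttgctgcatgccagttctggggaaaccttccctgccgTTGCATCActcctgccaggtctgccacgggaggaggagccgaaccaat
Tars: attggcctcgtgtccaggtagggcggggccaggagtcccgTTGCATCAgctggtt
Asns: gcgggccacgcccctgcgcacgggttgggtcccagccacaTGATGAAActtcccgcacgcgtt
Aars: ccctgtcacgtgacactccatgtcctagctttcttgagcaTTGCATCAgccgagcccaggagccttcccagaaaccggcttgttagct

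The Vldlr stretch is chr19:27216780-27216867 (+ strand) in the window of 1 of its 2 start sites, with the match at position -200 from the start (the start base is 1). The others are chr2:152344028-152344057 for Trib3 (- strand, match at position 15, inside the transcript), chr2:119351009-119351096 for Chac1 (+ strand, -193), chr15:11399659-11399713 for Tars (- strand, -15), chr6:7693210-7693272 for Asns (- strand, -23) and chr8:111033690-111033777 for Aars (+ strand, -112). A match is a description of the letters and not evidence of binding, and binding was not measured.

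Each array gave 1 log2 expression value per probe set, and the medians of the 9 arrays lay between 6.21 and 6.29. The number of arrays limits the precision. Replicates differed most in ICAT cells, where the median SD per gene was 0.121, against 0.0746 in beta-catenin and 0.0567 in control cells. Ctnnb1 had means of 12.68 (control), 12.88 (beta-catenin) and 12.88 (ICAT), and Ctnnbip1 of 8.64, 8.78 and 8.79. These 3′ probe sets need not detect a transfected coding sequence, so they do not check the labels. Of the epithelial markers, Cdh1 (E-cadherin) had means of 3.48, 3.54 and 3.48 in the same order, under the log2 5 used as a filter, and Krt7 was under it too. Krt18 had means of 7.23, 6.79 and 8.51. Of the 7 epithelial and ductal markers tested, 0 passed the test in beta-catenin cells in limma's fit and 4 were higher in ICAT cells, where the mean of the 7 lay between 6.94 and 7.21 (control 6.65 to 6.73, beta-catenin 6.57 to 6.60). Of all genes tested 34.9% passed in beta-catenin cells, and 18.7% were higher in ICAT cells.

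Among the ICAT arrays replicate 1 stood apart for these genes. It had the lowest ICAT value for 34 of the 35 genes (97.1%), Cebpb being the exception, and for 31.3% of all genes tested. ICAT replicate 3 had the highest value for 32 genes (91.4%, against 43.9% of all genes tested), with Cebpb, Eif4ebp1 and Vldlr as exceptions. Replicate 1 lay below every control array for 23 of the 35 genes and above every control array for 9. For replicate 3 these counts were 5 and 28. The counts against the control arrays were not made over all genes tested, so how unusual they are was not assessed. The median range over the 3 arrays of a group was 0.51 in ICAT cells, 0.08 in control and 0.11 in beta-catenin cells, against 0.23, 0.11 and 0.14 for all genes tested. In ICAT cells 20 of the 35 genes had a range over 0.5 (6.6% of all genes tested), and in the control and beta-catenin groups 0 did. These counts were made after the values had been seen. Calls that change without ICAT replicate 1 or 3 are therefore given with each gene.

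**Figure D1:**
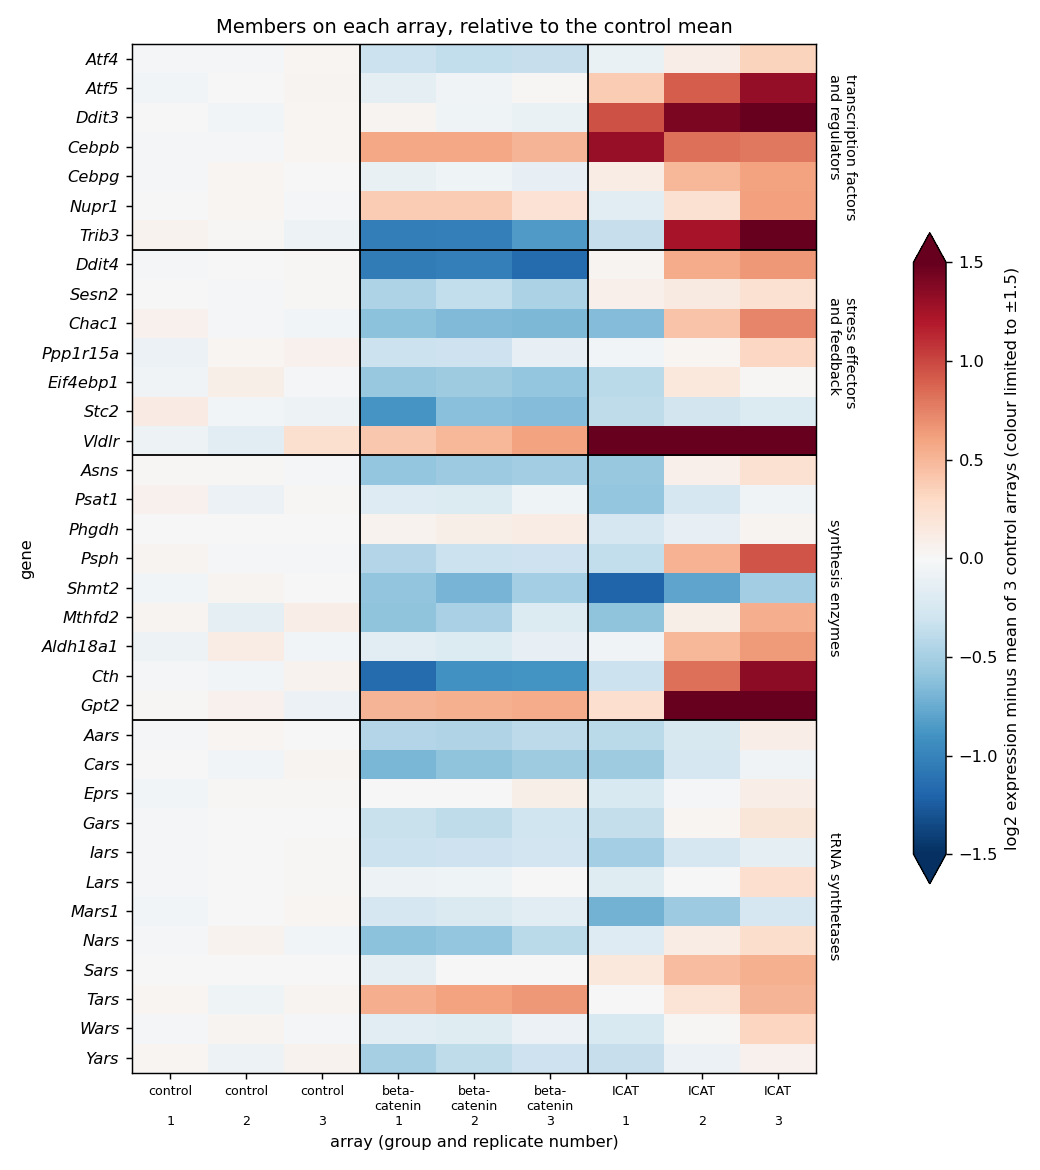
Each row is 1 of the 35 genes and each column 1 of the 9 arrays; the colour is the log2 value minus the mean of the 3 control arrays, limited to 1.5 either way. The ICAT replicate 1 column is the lowest of the ICAT columns in 34 rows.

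The 3 comparisons were made with limma over all 9 arrays, and a gene was called (written "rose" or "fell") at a Benjamini-Hochberg adjusted p under 0.05 over the 15235 genes. In beta-catenin cells 3 of the 35 genes rose and 14 fell against control, 17 in all (48.6%), with a median log2 difference of -0.31. Of all genes tested 34.9% were called, 19.6% higher and 15.4% lower, with a median of -0.03. The beta-catenin and control arrays did not overlap for 29 of the 35 genes (54.1% of all genes tested). In ICAT cells 8 rose and 4 fell, 12 in all (34.3%), with a median of 0.10; of all genes tested 37.2% were called, 18.7% higher and 18.5% lower, with a median of -0.01. The ICAT and control arrays did not overlap for 14 of the 35 genes (46.2% of all genes tested). The share called in ICAT cells thus lay near that of all genes. A call with at least a 2-fold difference was made in beta-catenin cells for 1 gene, Ddit4 (4.62% of all genes tested). In ICAT cells it was made for 3, Ddit3, Vldlr and Gpt2 (2.94%). Each of these 3 fell short of 2-fold by another probe set (Ddit3 at a log2 difference of 0.55, the others given below). Vldlr and Gpt2 also exceeded 2-fold by further probe sets, given below. With each array centred on the median of the tested genes the ICAT split was 7 higher and 7 lower, with 40.1% of all genes called in that fit. Without ICAT replicate 1 it was 16 higher and 3 lower (35.7% of all genes called in that fit), and without ICAT replicate 3 it was 7 higher and 8 lower (40.4%).

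Between the transfected lines, 21 of the 35 genes were lower and 2 higher in beta-catenin than in ICAT cells, 23 in all (65.7%), with a median log2 difference of -0.43. Of all genes tested 40.4% were called in that comparison, 17.9% lower and 22.5% higher, with a median of -0.01. The arrays did not overlap for 19 of the 35 genes (47.6% of all genes tested). Differences of at least 2-fold were called for 5 genes, Ddit3, Trib3, Ddit4, Vldlr and Cth (3.97% of all genes tested). Vldlr fell short of 2-fold by another probe set (log2 difference -0.59, limma, adjusted p = 0.000548). Ddit3 did too, at -0.80 (adjusted p = 0.000305 over all probe sets). The 2 genes higher in beta-catenin cells, Mars1 and Tars, encode tRNA synthetases. The lower count without 1 array ranged from 15 to 26, with 34% to 45.8% of all genes called in either direction in those fits. The comparisons share groups, so their counts are not independent of each other.

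**Figure D2:**
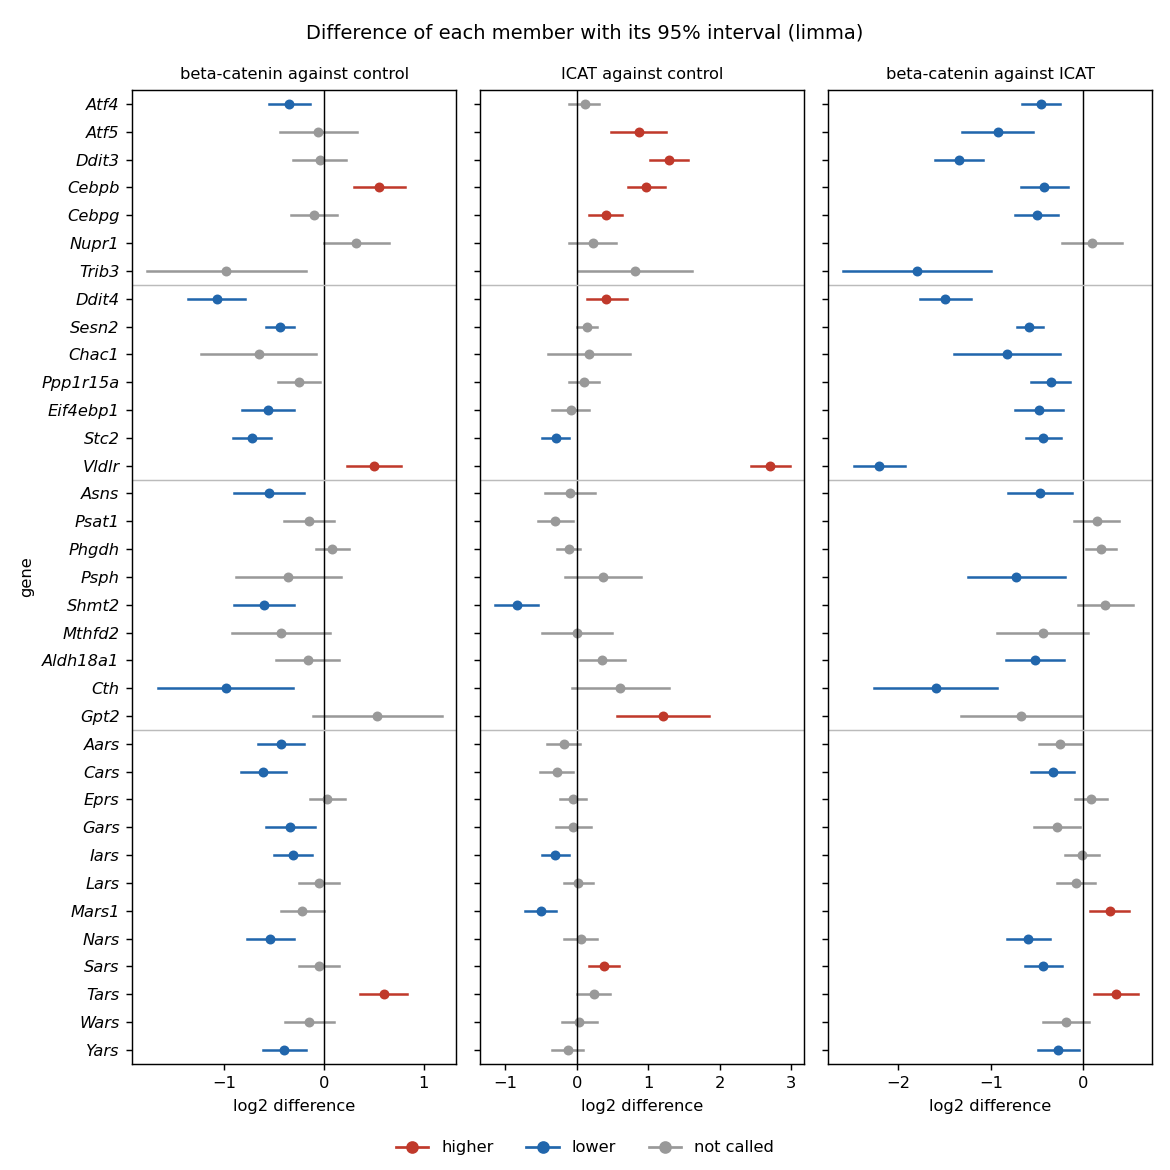
Points are log2 differences for the 35 genes in the 3 comparisons, with 95% intervals from limma that are not adjusted for the number of genes; red is called higher, blue called lower and grey not called. In the comparison of beta-catenin with ICAT cells 21 genes are blue and 2 red.

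Of the 7 transcription factors and their regulators, 1 rose and 1 fell with beta-catenin, 4 rose and 0 fell with ICAT, and 6 were lower and 0 higher in beta-catenin than in ICAT cells. The shares called were 28.6%, 57.1% and 85.7%, against 34.9%, 37.2% and 40.4% of all genes tested. Array values are listed below for replicates 1, 2 and 3 in that order. Atf4 had log2 values of 12.03, 12.02 and 12.07 on the control arrays, 11.71, 11.68 and 11.70 on the beta-catenin arrays and 11.94, 12.14 and 12.38 on the ICAT arrays. The beta-catenin arrays lay below all the others, and the ICAT arrays spanned the control range. Atf4 fell 1.27-fold in beta-catenin cells (log2 difference -0.34, SE 0.0946, limma, adjusted p = 0.0144), a call lost without control replicate 3 (adjusted p = 0.0511). In ICAT cells it differed from control by 0.11 (95% interval -0.10 to 0.32, adjusted p = 0.42). Without ICAT replicate 1 that difference was 0.22 and passed (adjusted p = 0.0483), and a dimmer probe set of Atf4 was higher in ICAT cells with all arrays by 0.40 (adjusted p = 0.00909 over all probe sets). By that probe set the difference of beta-catenin cells from control was -0.26 and did not pass (adjusted p = 0.0709 over all probe sets). By a still dimmer one it was -0.13 and did not pass either (adjusted p = 0.322 over all probe sets).

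Ddit3 encodes CHOP, a factor induced by ATF4 that can lead to cell death. It had log2 values of 8.28, 8.23 and 8.30 on the control arrays, 8.31, 8.20 and 8.17 on the beta-catenin arrays and 9.23, 9.68 and 9.79 on the ICAT arrays. Every ICAT array lay above the control and beta-catenin arrays, which overlapped. Ddit3 rose 2.46-fold in ICAT cells (log2 difference 1.30, SE 0.12, adjusted p = 1.22e-05) and differed by -0.04 in beta-catenin cells (95% interval -0.31 to 0.22, adjusted p = 0.817). Beta-catenin cells lay 2.53-fold below ICAT cells (adjusted p = 6.53e-06).

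Atf5, a related bZIP factor that is controlled by translation in a similar way, had log2 values of 8.93, 8.97 and 9.01 on the control arrays, 8.83, 8.92 and 8.98 on the beta-catenin arrays and 9.34, 9.88 and 10.28 on the ICAT arrays. The ICAT arrays were again above the others without overlap, though spread widely. Atf5 rose 1.82-fold in ICAT cells (log2 difference 0.87, SE 0.175, limma, adjusted p = 0.0023) and differed by -0.06 in beta-catenin cells (adjusted p = 0.837). Cebpg encodes a C/EBP partner of ATF4, and its values were 8.78, 8.83 and 8.80 on the control arrays, 8.69, 8.74 and 8.69 on the beta-catenin arrays and 8.92, 9.31 and 9.41 on the ICAT arrays. It rose 1.32-fold in ICAT cells (log2 difference 0.40, adjusted p = 0.0106) and did not pass in beta-catenin cells (-0.10, adjusted p = 0.522). As a mean of its probe sets the ICAT difference was 0.19 and did not pass (adjusted p = 0.0786).

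Cebpb, a C/EBP factor of inflammatory and stress responses, had log2 values of 11.11, 11.10 and 11.15 on the control arrays, 11.70, 11.71 and 11.63 on the beta-catenin arrays and 12.43, 11.95 and 11.91 on the ICAT arrays. All 3 groups were separate, with ICAT above beta-catenin and beta-catenin above control, and ICAT replicate 1 was here the highest array. Cebpb rose 1.47-fold in beta-catenin cells (log2 difference 0.56, SE 0.115, limma, adjusted p = 0.00269) and 1.97-fold in ICAT cells (0.97, SE 0.115, adjusted p = 6.32e-05). Between the lines the difference was -0.42 (adjusted p = 0.012), and it was -0.25 without ICAT replicate 1 (adjusted p = 0.00747) and -0.34 as a mean of its probe sets, where it did not pass (adjusted p = 0.054).

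Trib3, a pseudokinase that restrains ATF4 signalling, had log2 values of 8.71, 8.67 and 8.58 on the control arrays, 7.61, 7.62 and 7.80 on the beta-catenin arrays and 8.31, 9.89 and 10.23 on the ICAT arrays. The beta-catenin arrays lay below the control arrays without overlap, while ICAT replicate 1 lay below the control arrays and ICAT replicates 2 and 3 far above them. The difference in beta-catenin cells was -0.97 (SE 0.363) and did not pass (adjusted p = 0.0587). It passed when the ICAT arrays were left out of the fit (adjusted p = 8.96e-06) and without ICAT replicate 1 or 3 (adjusted p = 1.2e-05 and 0.0306). In ICAT cells the difference was 0.82 with all arrays (adjusted p = 0.104) and 1.41, or 2.65-fold, without ICAT replicate 1 (adjusted p = 4.63e-06). Beta-catenin cells lay 3.48-fold below ICAT cells (limma, adjusted p = 0.00202). By a dimmer probe set of Trib3 the difference of beta-catenin cells from control was -0.39 (adjusted p = 0.372 over all probe sets), so its size depends on the probe set. Nupr1, a small stress-induced chromatin protein, had means of 9.28 ± 0.0234 (control), 9.60 ± 0.0962 (beta-catenin) and 9.50 ± 0.385 (ICAT), each with its SD (n = 3), and passed in no comparison with all arrays. Without ICAT replicate 1 it passed in both comparisons with control (0.42 in ICAT cells, adjusted p = 0.0107; adjusted p = 0.0202 in beta-catenin cells). Without ICAT replicate 3 it passed in beta-catenin cells against control (adjusted p = 0.0196) and against ICAT cells (0.29, adjusted p = 0.0453).

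**Figure D3:**
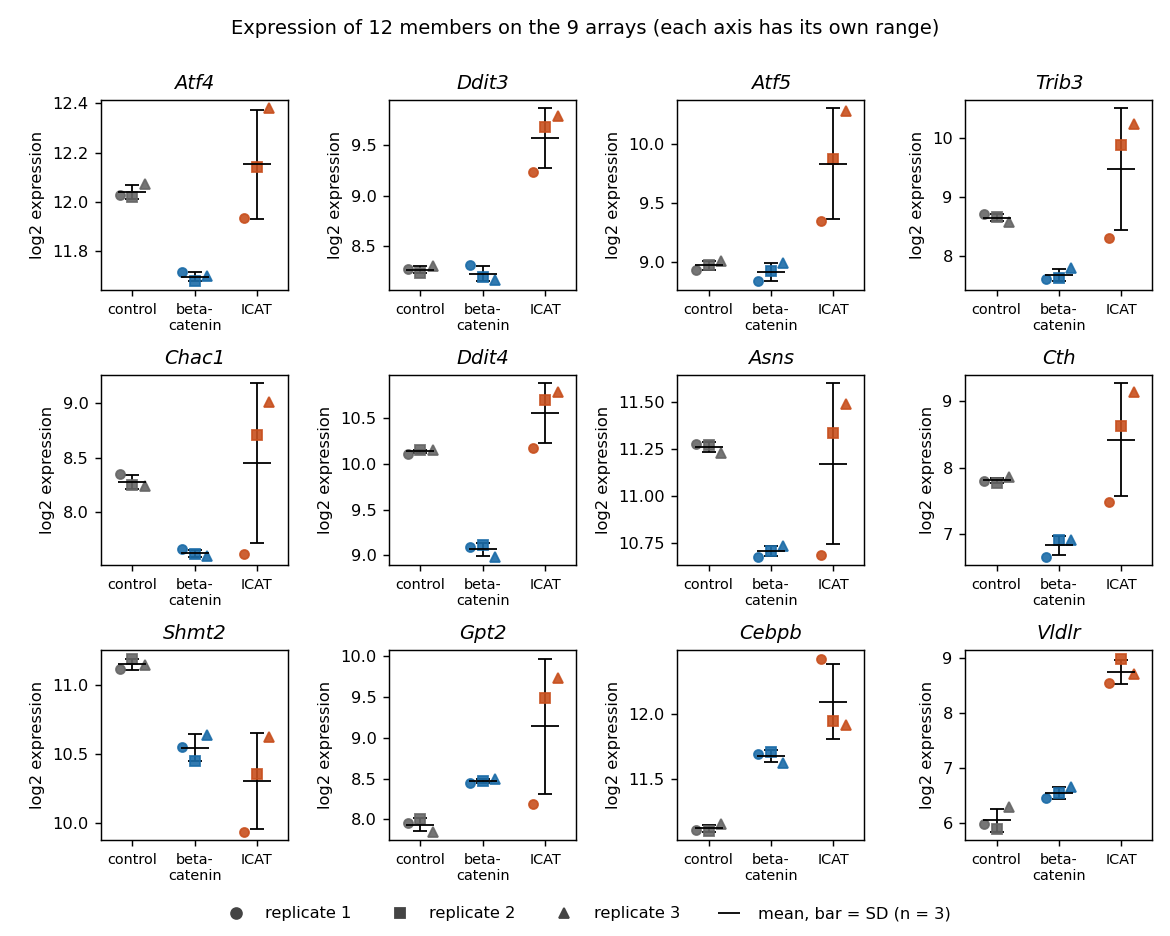
Log2 expression of 12 of the genes on each array, 1 panel per gene with its own axis range; symbols give the replicate number, black bars the mean and SD of 3 arrays. For Trib3, Chac1, Asns and Cth the beta-catenin points lie below the control points and the 3 ICAT points run from below the control points to above them.

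Of the 7 stress effectors and feedback genes, 4 fell and 1 rose with beta-catenin, 2 rose and 1 fell with ICAT, and 7 of 7 were lower in beta-catenin than in ICAT cells. The shares called were 71.4%, 42.9% and 100%, against 34.9%, 37.2% and 40.4% of all genes tested. Ddit4 (REDD1), an inhibitor of the growth kinase mTORC1, had log2 values of 10.11, 10.15 and 10.15 on the control arrays, 9.09, 9.11 and 8.99 on the beta-catenin arrays and 10.18, 10.70 and 10.79 on the ICAT arrays. The 3 groups did not overlap, with beta-catenin lowest and ICAT highest. Ddit4 fell 2.11-fold in beta-catenin cells (log2 difference -1.07, SE 0.128, limma, adjusted p = 5.06e-05). Its rise in ICAT cells was 1.34-fold (0.42, SE 0.128, adjusted p = 0.0239), a call lost without any 1 control array or without ICAT replicate 2 or 3 (adjusted p between 0.0565 and 0.097), and with arrays centred on their median (adjusted p = 0.0531). Beta-catenin cells lay 2.81-fold below ICAT cells (adjusted p = 4.85e-06).

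Sesn2, a leucine sensor that also restrains mTORC1, had log2 values of 7.59, 7.58 and 7.61 on the control arrays, 7.13, 7.22 and 7.11 on the beta-catenin arrays and 7.67, 7.73 and 7.82 on the ICAT arrays. Its groups did not overlap either, in the same order. Sesn2 fell 1.35-fold in beta-catenin cells (log2 difference -0.44, SE 0.0633, limma, adjusted p = 0.000221) and differed by 0.14 in ICAT cells (adjusted p = 0.101). Eif4ebp1 encodes 4E-BP1, which holds back cap-dependent translation, and its values were 12.20, 12.33 and 12.22 on the control arrays, 11.68, 11.72 and 11.68 on the beta-catenin arrays and 11.84, 12.41 and 12.26 on the ICAT arrays. The beta-catenin arrays were below all the others. Eif4ebp1 fell 1.47-fold in beta-catenin cells (-0.56, SE 0.118, adjusted p = 0.00312) and differed by -0.08 in ICAT cells (adjusted p = 0.666).

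Stc2, a secreted glycoprotein induced in stress, had log2 values of 8.64, 8.49 and 8.45 on the control arrays, 7.64, 7.90 and 7.88 on the beta-catenin arrays and 8.14, 8.25 and 8.32 on the ICAT arrays. Both transfected lines lay below control, beta-catenin further than ICAT, with no overlap. Stc2 fell 1.65-fold in beta-catenin cells (log2 difference -0.72, SE 0.0874, limma, adjusted p = 5.65e-05) and 1.22-fold in ICAT cells (-0.29, SE 0.0874, adjusted p = 0.0222). Without control replicate 1 or ICAT replicate 1 the ICAT call was lost (adjusted p = 0.0988 and 0.0701). A dimmer probe set of Stc2 differed by -1.52 in beta-catenin cells (adjusted p = 1.64e-07 over all probe sets), so the size of the fall depends on the probe set. As a mean of its probe sets the ICAT difference was -0.17 (adjusted p = 0.0377) and that between the lines -0.67, against -0.43 by the brightest (adjusted p = 7.5e-06 and 0.00201).

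Chac1, which degrades glutathione, had log2 values of 8.35, 8.25 and 8.24 on the control arrays, 7.66, 7.62 and 7.60 on the beta-catenin arrays and 7.62, 8.71 and 9.01 on the ICAT arrays. ICAT replicate 1 lay among the beta-catenin arrays and ICAT replicates 2 and 3 above control. Its differences from control were -0.65 in beta-catenin cells (SE 0.261, limma, adjusted p = 0.0772) and 0.17 in ICAT cells (adjusted p = 0.675), and neither passed. Without ICAT replicate 1 both did, at 0.58 in ICAT cells (adjusted p = 0.000549) and with adjusted p = 8.3e-05 in beta-catenin cells, where it also passed without ICAT replicate 3 (adjusted p = 0.0356). Beta-catenin cells were 1.77-fold below ICAT cells (adjusted p = 0.0259), a call lost without ICAT replicate 2 or 3 or any 1 beta-catenin array (adjusted p from 0.0536 to 0.109). Ppp1r15a (GADD34), the subunit that directs dephosphorylation of eIF2, had means of 9.27 ± 0.0813 (control), 9.02 ± 0.115 (beta-catenin) and 9.37 ± 0.184 (ICAT), each with its SD (n = 3). It passed in neither comparison with control with all arrays (adjusted p = 0.0663 with beta-catenin, 0.496 with ICAT) and was 1.27-fold lower in beta-catenin than in ICAT cells (adjusted p = 0.0129; 0.0515 without beta-catenin replicate 2). The difference of -0.25 in beta-catenin cells passed without ICAT replicate 1 or 3 (adjusted p = 0.0451 and 0.0184) or without beta-catenin replicate 3 (-0.32, adjusted p = 0.0425).

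Vldlr, the receptor for very-low-density lipoprotein, had log2 values of 5.98, 5.88 and 6.28 on the control arrays, 6.45, 6.54 and 6.66 on the beta-catenin arrays and 8.56, 8.998 and 8.71 on the ICAT arrays. Every ICAT array was far above the others, and the beta-catenin arrays lay just above control. By this probe set Vldlr rose 6.54-fold in ICAT cells (log2 difference 2.71, SE 0.124, limma, adjusted p = 1.29e-07), the largest rise among the 35 genes, and 1.41-fold in beta-catenin cells (0.50, adjusted p = 0.00824). The probe set is of the type whose probes can match other transcripts. By its brightest probe set not of that type the ICAT difference was 0.66 (adjusted p = 0.000309) and the beta-catenin difference 0.07 (adjusted p = 0.652), and as a mean of its probe sets 1.39 (adjusted p = 9.5e-07) and 0.18 (adjusted p = 0.105). Between the lines the difference was -2.21 by the brightest probe set, and these readings gave -0.59 and -1.21 (adjusted p = 0.000548 and 1.03e-06). A dimmer probe set not of that type gave 2.78 in ICAT cells and 0.63 in beta-catenin cells (adjusted p = 8.93e-08 and 0.00366 over all probe sets). Its control and beta-catenin means lay under log2 5. Still dimmer probe sets gave 0.40 to 1.25 in ICAT cells, and were not called in beta-catenin cells. None of these reached log2 5 on 3 arrays, so they fell short of the filter. The rise in ICAT cells was therefore called by each reading given here, the dimmest of them under the filter, and its size was not settled. The rise in beta-catenin cells rests on the probe set chosen.

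Of the 9 measured enzymes, 3 fell and 0 rose with beta-catenin, 1 rose and 1 fell with ICAT, and 4 were lower and 0 higher in beta-catenin than in ICAT cells. The shares called were 33.3%, 22.2% and 44.4%, against 34.9%, 37.2% and 40.4% of all genes tested. Asns, which makes asparagine from aspartate and glutamine, had log2 values of 11.28, 11.27 and 11.23 on the control arrays, 10.68, 10.71 and 10.73 on the beta-catenin arrays and 10.69, 11.34 and 11.49 on the ICAT arrays. The beta-catenin arrays were below control, and ICAT replicate 1 lay among them while ICAT replicates 2 and 3 lay above control. Asns fell 1.47-fold in beta-catenin cells (log2 difference -0.55, SE 0.158, limma, adjusted p = 0.018), a call lost without control replicate 1 or 2 or beta-catenin replicate 1 (adjusted p from 0.0505 to 0.0532) and with a trend and robust prior (adjusted p = 0.0503). In ICAT cells the difference was -0.09 (95% interval -0.44 to 0.26, adjusted p = 0.725). Against ICAT cells beta-catenin cells were 1.38-fold lower (adjusted p = 0.0361), a call lost when any 1 array other than control replicate 3 or ICAT replicate 1 was left out (adjusted p from 0.0503 to 0.138) and 0.71 lower on the log2 scale without ICAT replicate 1 (adjusted p = 1.8e-05).

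Cth, the last enzyme of cysteine synthesis by transsulfuration, had log2 values of 7.79, 7.77 and 7.85 on the control arrays, 6.66, 6.90 and 6.91 on the beta-catenin arrays and 7.48, 8.63 and 9.15 on the ICAT arrays. The beta-catenin arrays lay well below control, and the ICAT arrays ran from below to above it. Cth fell 1.98-fold in beta-catenin cells (log2 difference -0.98, SE 0.305, limma, adjusted p = 0.0264). That call was lost when any 1 control or beta-catenin array was left out (adjusted p from 0.0538 to 0.0794) and with a trend and robust prior (adjusted p = 0.105). In ICAT cells the difference was 0.61 (adjusted p = 0.149), and without ICAT replicate 1 it was 1.08, or 2.12-fold (adjusted p = 0.000152). Beta-catenin cells were 3.03-fold below ICAT cells (adjusted p = 0.0014).

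Psph, which completes serine synthesis, had log2 values of 10.34, 10.26 and 10.28 on the control arrays, 9.85, 9.98 and 9.99 on the beta-catenin arrays and 9.93, 10.82 and 11.24 on the ICAT arrays. The beta-catenin arrays were below control, and ICAT replicate 1 was within their range. Neither control comparison passed (-0.36 in beta-catenin cells, limma, adjusted p = 0.294; 0.37 in ICAT cells, adjusted p = 0.278), and without ICAT replicate 1 both did (adjusted p = 0.0143 in beta-catenin cells; 0.73 in ICAT cells, adjusted p = 0.000454). Beta-catenin cells were 1.65-fold below ICAT cells (adjusted p = 0.0315), a call lost without any 1 beta-catenin array or ICAT replicate 2 or 3 (adjusted p between 0.0643 and 0.113). The other enzymes of serine synthesis passed in no comparison with all arrays. Phgdh, the first of them, differed by 0.08 in beta-catenin cells (95% interval -0.08 to 0.25, adjusted p = 0.427) and by -0.11 in ICAT cells (95% interval -0.27 to 0.05, adjusted p = 0.292). Psat1 had means of 11.77 (control), 11.62 (beta-catenin) and 11.48 (ICAT) (adjusted p = 0.343 and 0.0601 against control). Without ICAT replicate 3 both passed as lower in ICAT cells (-0.42 for Psat1, adjusted p = 0.00628; -0.18 for Phgdh, adjusted p = 0.0308) and as higher in beta-catenin than in ICAT cells (0.27 for each, adjusted p = 0.0463 for Psat1 and 0.00434 for Phgdh).

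Shmt2, the mitochondrial enzyme that takes a carbon unit from serine to folate, had log2 values of 11.11, 11.19 and 11.14 on the control arrays, 10.55, 10.45 and 10.64 on the beta-catenin arrays and 9.94, 10.36 and 10.63 on the ICAT arrays. Control arrays were above both transfected lines, which overlapped. Shmt2 fell 1.51-fold in beta-catenin cells (log2 difference -0.60, SE 0.136, limma, adjusted p = 0.00488) and 1.79-fold in ICAT cells (-0.84, SE 0.136, adjusted p = 0.000552). All 4 of its probe sets were called lower in both lines. Between the lines Shmt2 differed by 0.24 (adjusted p = 0.195), and without ICAT replicate 3 by 0.40 (adjusted p = 0.0155). Mthfd2, the next mitochondrial folate enzyme, had means of 10.32 ± 0.126 (control), 9.88 ± 0.202 (beta-catenin) and 10.32 ± 0.579 (ICAT), each with its SD (n = 3), and passed in no comparison with all arrays. Without ICAT replicate 1 it passed as lower in beta-catenin cells than in control (adjusted p = 0.0237) and than in ICAT cells (-0.75, adjusted p = 0.00204).

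Gpt2, a mitochondrial alanine transaminase, had log2 values of 7.95, 8.00 and 7.85 on the control arrays, 8.44, 8.47 and 8.50 on the beta-catenin arrays and 8.19, 9.49 and 9.74 on the ICAT arrays. The transfected arrays were above control in every case, and ICAT replicate 1 lay below the beta-catenin arrays. Gpt2 rose 2.3-fold in ICAT cells (log2 difference 1.20, SE 0.295, limma, adjusted p = 0.00722). By its brightest probe set that is not of the cross-matching type the rise was 0.47 (adjusted p = 0.0278). In beta-catenin cells the difference by the brightest probe set was 0.54 (SE 0.295, adjusted p = 0.195), which passed without ICAT replicate 1 (adjusted p = 0.00022). Between the lines Gpt2 differed by -0.67 (adjusted p = 0.0958), and without ICAT replicate 1 by -1.14 (adjusted p = 2.69e-06). It also passed between the lines at -0.78 as a mean of its probe sets (adjusted p = 0.0262) and at -0.43 by the brightest probe set not of the cross-matching type (adjusted p = 0.0403). Aldh18a1, which starts proline synthesis from glutamate, had values of 9.93, 10.13 and 9.98 on the control arrays, 9.85, 9.81 and 9.89 on the beta-catenin arrays and 9.97, 10.51 and 10.65 on the ICAT arrays. It passed against control in neither line (-0.16, adjusted p = 0.426; 0.36 in ICAT cells, adjusted p = 0.068) and rose by 0.57 in ICAT cells without replicate 1 (adjusted p = 0.000302). Beta-catenin cells were 1.44-fold below ICAT cells for Aldh18a1 (adjusted p = 0.0114; 0.054 without ICAT replicate 2).

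Of the 12 cytosolic tRNA synthetases, which load amino acids onto tRNAs, 6 fell and 1 rose with beta-catenin, 1 rose and 2 fell with ICAT, and 4 were lower and 2 higher in beta-catenin than in ICAT cells. The shares called were 58.3%, 25% and 50%, against 34.9%, 37.2% and 40.4% of all genes tested. Nars (asparagine) had log2 values of 11.43, 11.51 and 11.41 on the control arrays, 10.83, 10.87 and 11.04 on the beta-catenin arrays and 11.25, 11.56 and 11.71 on the ICAT arrays. The beta-catenin arrays were below the other 6. Nars fell 1.45-fold in beta-catenin cells (log2 difference -0.54, SE 0.107, limma, adjusted p = 0.00212) and differed by 0.06 in ICAT cells (adjusted p = 0.728). Cars (cysteine) had values of 9.36, 9.31 and 9.40 on the control arrays, 8.67, 8.76 and 8.82 on the beta-catenin arrays and 8.83, 9.10 and 9.31 on the ICAT arrays. Both lines lay below control without overlap, and the difference passed in beta-catenin cells (1.52-fold, -0.61, adjusted p = 0.000728) and not in ICAT cells (-0.28, adjusted p = 0.0548), where it passed without ICAT replicate 3 (-0.39, adjusted p = 0.0045). As a mean of its probe sets the beta-catenin difference of Cars was -0.34 (adjusted p = 0.000599), and the ICAT difference of -0.17 passed (adjusted p = 0.0362).

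Tars (threonine) moved the other way. Its values were 10.98, 10.89 and 10.99 on the control arrays, 11.50, 11.55 and 11.59 on the beta-catenin arrays and 10.96, 11.15 and 11.46 on the ICAT arrays. The beta-catenin arrays were above all the others. Tars rose 1.51-fold in beta-catenin cells (log2 difference 0.60, SE 0.106, limma, adjusted p = 0.000976) and differed by 0.24 in ICAT cells (adjusted p = 0.105; 0.36 and 0.0109 without ICAT replicate 1). Its higher level in beta-catenin than in ICAT cells (1.28-fold, adjusted p = 0.0184) was lost without ICAT replicate 1 or 2 or either of beta-catenin replicates 2 and 3 (adjusted p from 0.0505 to 0.062). Mars1 (methionine) had its lowest values in ICAT cells, at 10.75, 10.80 and 10.81 on the control arrays, 10.53, 10.57 and 10.61 on the beta-catenin arrays and 10.08, 10.24 and 10.53 on the ICAT arrays. It fell 1.42-fold there (-0.50, SE 0.0987, adjusted p = 0.00192) and differed by -0.22 in beta-catenin cells (adjusted p = 0.12; 0.0496 without ICAT replicate 1 and 0.0142 without ICAT replicate 3). Its call between the 2 lines (0.29, adjusted p = 0.0367) was lost without any 1 array other than ICAT replicate 3 (adjusted p from 0.0517 to 0.121).

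Aars, Gars, Iars and Yars fell in beta-catenin cells by smaller amounts, with log2 differences from -0.43 for Aars (limma, adjusted p = 0.00799) to -0.31 for Iars (adjusted p = 0.0145). Yars differed by -0.40 (adjusted p = 0.00853) and Gars by -0.34 (adjusted p = 0.0362). The Gars call was lost when any 1 control or beta-catenin array was left out (adjusted p from 0.0669 to 0.105), and the Iars call without control replicate 3 (adjusted p = 0.0504) or by its probe set that is not of the cross-matching type (-0.31, adjusted p = 0.0716). In ICAT cells Iars also fell (-0.30, adjusted p = 0.0175; 0.0586 without control replicate 3; -0.19 and 0.037 without ICAT replicate 1), and Aars, Gars and Yars did not pass with all arrays. Without ICAT replicate 3 Aars passed as lower in ICAT cells (-0.32, against -0.18 with all arrays, adjusted p = 0.00265). Without ICAT replicate 1 Aars, Gars and Wars passed as lower in beta-catenin than in ICAT cells (-0.36, -0.44 and -0.32, adjusted p = 0.00939, 0.000439 and 0.0153). Sars (serine) rose in ICAT cells by 0.39 (adjusted p = 0.00614) from a control mean of 11.07, and differed by -0.05 in beta-catenin cells. Eprs, Lars and Wars passed in no comparison with all arrays, with differences from control between -0.15 and 0.04. Between the lines Yars (-0.27, adjusted p = 0.0482) was lost without any 1 array other than ICAT replicate 1 (adjusted p from 0.0549 to 0.148), and Cars (-0.33, adjusted p = 0.0246) without ICAT replicate 2 or 3 or either of beta-catenin replicates 1 and 2 (adjusted p from 0.0597 to 0.0798).

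**Figure D4:**
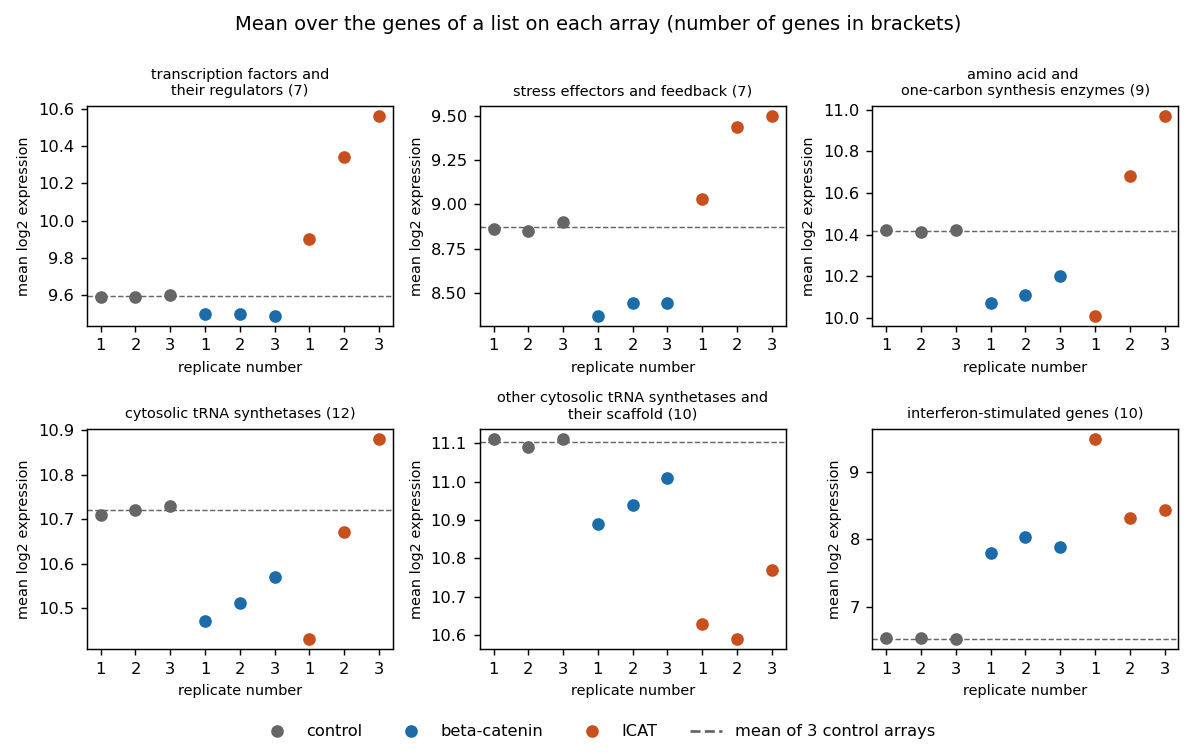
Each point is the mean log2 value of a list on 1 array, in 6 panels with their own axis ranges; the dashed line is the mean of the 3 control arrays. On the ICAT arrays the 4 lists of described genes are lowest on replicate 1, and the interferon-stimulated list is highest there.

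The array means of the 4 groups of genes were steady in control and varied most in ICAT cells. For the transcription factors and regulators they lay between 9.59 and 9.60 in control. They were 9.50, 9.50 and 9.49 on the beta-catenin arrays and 9.90, 10.34 and 10.56 on the ICAT arrays. The enzymes lay between 10.41 and 10.42 in control, at 10.07, 10.11 and 10.20 on the beta-catenin arrays and at 10.01, 10.68 and 10.97 on the ICAT arrays. For the stress effectors the beta-catenin means (8.37, 8.44 and 8.44) were below control (8.85 to 8.90) and the ICAT means (9.03, 9.44 and 9.50) above. The synthetases of the list were 10.71, 10.72 and 10.73 on the control arrays. They were 10.47, 10.51 and 10.57 on the beta-catenin arrays and 10.43, 10.67 and 10.88 on the ICAT arrays. The enzymes and synthetases thus rose from replicate 1 to 3 in beta-catenin cells too, over a smaller range.

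Leaving out each of the 9 arrays in turn kept the call of 12 of the 17 genes called in beta-catenin cells, 9 of the 12 called in ICAT cells and 14 of the 23 called between the lines. The calls lost are named with each gene. Fitted on the arrays of beta-catenin and ICAT cells alone, Asns, Psph, Cars, Mars1 and Yars lost their call between the lines (adjusted p from 0.0537 to 0.0881), and with a trend and robust prior Asns, Psph and Chac1 did (adjusted p from 0.0828 to 0.112). A gene's other probe sets were read in a separate fit over all probe sets, and 24 of the 35 genes had 41 further probe sets at log2 5 or more on at least 3 arrays. Where the gene was called, 13 of 18 of these were called in the same direction in beta-catenin cells, 12 of 16 in ICAT cells and 15 of 22 between the lines, and 0 were called in the opposite direction. Iars fell in both lines by a probe set of the cross-matching type, and by its other one the difference did not pass in ICAT cells either (-0.30, adjusted p = 0.0815). Trib3, whose brightest probe set is also of that type, was higher in ICAT cells by its other one (0.98, adjusted p = 0.0204 over all probe sets). Cebpb by its other probe set was not called between the lines (adjusted p = 0.203).

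Calls were also counted by the element in the promoter window. Among the 10 genes with a match, the calls were 2 up and 5 down with beta-catenin and 1 up and 1 down with ICAT (34.9% and 37.2% of all genes tested were called in these comparisons). Among the 19 with a window and no match, they were 1 up and 5 down with beta-catenin and 7 up and 3 down with ICAT, and among the 6 without a window 0 up and 4 down with beta-catenin and 0 with ICAT. Between the lines 5 genes with a match were lower and 1 higher in beta-catenin cells, 12 were lower and 1 higher without a match, and 4 lower and 0 higher without a window (40.4% of all genes tested were called). Vldlr and Tars, whose elements are shown above, rose in beta-catenin cells, and Asns and Aars, also shown, fell there. The windows cover a small part of a gene's regulatory sequence, and no difference between these counts was tested.

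Genes of the same pathway outside the list were read from further lists. Of all genes tested 18.7% rose and 18.5% fell in ICAT cells, and 19.6% rose and 15.4% fell in beta-catenin cells. Of 10 other cytosolic tRNA synthetases and scaffold proteins of the synthetase complex, 9 fell and 0 rose in ICAT cells, and 4 fell and 1 rose in beta-catenin cells. The median difference in ICAT cells was -0.46, led by Vars (-0.66, limma, adjusted p = 7.52e-05), Hars (-0.64, adjusted p = 3.91e-05), Farsa (-0.62, adjusted p = 0.000161) and Eef1e1 (-0.52, adjusted p = 0.000352). For the 12 synthetases of the described list the median there was -0.05. Of 16 mitochondrial synthetases 6 fell and 0 rose in ICAT cells, with Yars2 at -0.82 (adjusted p = 0.000468), and 2 fell and 0 rose in beta-catenin cells. No test set these lists against each other.

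Of 23 other enzymes of amino acid and folate metabolism 13 fell and 3 rose in ICAT cells, and 6 rose and 6 fell with beta-catenin. The shares called were 69.6% and 52.2%, against 37.2% and 34.9% of all genes tested. Aldh1l2, a mitochondrial folate enzyme, rose in ICAT cells by 1.38 (limma, adjusted p = 0.00458) and in beta-catenin cells by 0.87 (adjusted p = 0.0497). Mthfd2l, a relative of Mthfd2, fell by 1.01 in beta-catenin cells (adjusted p = 1.87e-06) and by 0.69 in ICAT cells (adjusted p = 5.4e-05). Slc25a32, the mitochondrial folate carrier, rose by 0.51 in beta-catenin cells (adjusted p = 0.00118) and fell by 0.69 in ICAT cells (adjusted p = 0.000154), and the lines differed by 1.20 (adjusted p = 2.09e-06).

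Upstream of ATF4, 16 genes for eIF2 kinases, eIF2, its exchange factor eIF2B and their regulators were tested. In ICAT cells 3 rose and 6 fell, and in beta-catenin cells 1 rose and 4 fell. The shares called were 56.2% and 31.2%, against 37.2% and 34.9% of all genes tested. Eif2ak3 (PERK, the kinase of endoplasmic reticulum stress) rose in ICAT cells by 0.68 (limma, adjusted p = 0.00221), and Eif2ak2 (PKR, the kinase activated by double-stranded RNA and itself interferon-induced) by 0.58 (adjusted p = 0.00801). Eif2ak4 (GCN2, the kinase of amino acid shortage) rose in beta-catenin cells by 0.49 (adjusted p = 6.92e-05) and in ICAT cells by 0.18 (adjusted p = 0.041). Eif2b5, the catalytic subunit of eIF2B, fell by 0.45 in each line (adjusted p = 0.000905 with beta-catenin, 0.000913 with ICAT). Phosphorylation of eIF2 was not measured.

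Other genes reported as ATF4 targets rose in ICAT cells for 12 of 17 and fell for 1, with a median difference of 0.50. In that comparison 18.7% of all genes tested rose and 18.5% fell. In beta-catenin cells 3 of the 17 rose and 6 fell (19.6% and 15.4% of all genes tested), with a median of 0.01. Cebpd (another C/EBP factor) rose in ICAT cells by 1.06 (limma, adjusted p = 9.1e-05), Gadd45a (a growth arrest gene) by 0.84 (adjusted p = 0.00278) and Trib2 (a relative of Trib3) by 0.77 (adjusted p = 0.000139). Vegfa, a growth factor for blood vessels, fell by 0.97 in beta-catenin cells (adjusted p = 9.65e-06) and rose by 0.74 in ICAT cells (adjusted p = 0.000102). Between the lines 10 of the 17 were lower and 1 higher in beta-catenin cells (17.9% and 22.5% of all genes tested), with Vegfa at -1.72 (adjusted p = 1.73e-07).

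Other programmes moved with the groups. For the counts that follow, 18.7% of all genes tested rose and 18.5% fell in ICAT cells. With beta-catenin 19.6% rose and 15.4% fell. Of 10 interferon-stimulated genes, 10 rose in ICAT cells and 8 in beta-catenin cells. Their mean lay between 6.53 and 6.54 on the control arrays and between 7.80 and 8.04 on the beta-catenin arrays, and at 9.48, 8.31 and 8.43 on ICAT replicates 1, 2 and 3, so it was highest where the described genes were lowest among the ICAT arrays. Of 10 fibroblast markers tested, 8 rose in ICAT cells and 3 rose and 2 fell with beta-catenin, and the mean of the 10 lay between 7.93 and 7.99 in control, 8.13 and 8.35 in beta-catenin and 8.87 and 9.15 in ICAT cells. Lum and Fap of that list were under the filter, and Col1a2 lay at 12.17, 10.78 and 13.62 in the 3 groups. Of 7 immune and endothelial markers tested, 0 were called in ICAT cells in limma's fit and 2, Cd14 and Emcn, fell in beta-catenin cells, and Ptprc (CD45) lay under the filter at 4.38 in control cells. Of 5 acinar and endocrine markers 1, Cela1, rose in each line (by 1.21 and 0.40). The part of these programmes in the differences of the described genes was not tested.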

How the data were processed

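Affymetrix arrays measured RNA from 9 cultures of 1 mouse pancreatic cancer cell line in 3 groups after 3′ IVT labelling, per the labels' protocols. The deposited values are log2 expression, which the authors made with RMA and affy according to the submitters' processing notes (version: not given in the sources used here). RMA gives the arrays a common distribution, so a shift of all genes would not be seen, and it compresses differences of dim probe sets.

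The table has 45037 probe sets: 34945 with 1 gene symbol, 932 with several and 9160 with none. A RefSeq gene table gave current symbols, and 204 single-gene probe sets kept the annotation's own. Each gene was read from its brightest such probe set, and genes at log2 5 or more on at least 3 arrays were tested with limma 3.58.1 in R 4.3.3: 1 mean per group over all 9 arrays (6 residual and 5.03 prior degrees of freedom), two-sided moderated tests, Benjamini-Hochberg adjustment within each of 3 comparisons. A fold is computed from the difference of 2 group means (n = 3 each). With 3 arrays against 3 the smallest p of an exact permutation test is 0.1, so none was run. No 2 arrays were identical. The fit was tested on simulated data with the same spread for a gene in all groups, and so not with the wider ICAT spread.

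The described genes, the further lists and the markers were chosen with earlier results of these data known. Array values are printed for genes called in any comparison with a log2 difference of at least 0.5 and for Atf4, Ddit3, Trib3 and Asns. Of each further list up to 4 called genes with large differences are named. Alternatives were no filter or a filter at log2 7, the mean of a gene's probe sets, a fit over all probe sets, array weights, a fit of only the arrays compared, centred arrays, a trend and robust prior, a replicate block, each array left out in turn and, added after seeing the data, probe sets whose names do not end in _x_at or _s_at, the types that can match several transcripts. Same-numbered arrays did not deviate together throughout (correlations of -0.129 to 0.41, against -0.416 to 0.333 for different numbers), and the labels name no shared day, so the numbers were not used as pairs. Between groups the replicate 3 arrays were all positively correlated (0.121, 0.175 and 0.41). Counts with the replicate number as a block are given below. Promoter windows are from RefSeq, and those of 6 genes were not used here.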

Additional observations from a re-analysis of the deposited data

How the results depend on the processing

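Over 1995 readings of the described genes under other settings, 0 turned direction while passing the test in either setting, and 33 turned direction without passing in either. Array weights, which favour beta-catenin replicate 2 (weight 3.81) and count ICAT replicate 3 least (0.217), gave 5 genes higher and 22 lower in beta-catenin cells and 7 lower in ICAT cells, against 3, 14 and 4; of all genes tested these weights called 54.6% in beta-catenin and 38.9% in ICAT cells, against 34.9% and 37.2%. A fit of only the arrays compared called 26 genes in beta-catenin cells, 5 of them higher and the rest lower, against 17 and 3. Between the lines it called 18, 1 of them higher in beta-catenin cells and the rest lower, against 23 and 2. Of all genes 43.7% and 34.7% were called, against 34.9% and 40.4%. Gpt2 and Nupr1 then passed as higher in beta-catenin cells, and Trib3, Chac1, Psph, Mthfd2, Ppp1r15a, Mars1 and Wars as lower. Centring gave 7 lower in ICAT cells (40.1% of all genes called). Leaving out 1 array at a time gave 3 to 5 higher and 10 to 20 lower in beta-catenin cells, and 7 to 16 higher and 3 to 8 lower in ICAT cells. Between the lines it gave 0 to 6 higher and 15 to 26 lower in beta-catenin cells. In the same order 28.1% to 40.9%, 30.1% to 40.4% and 34% to 45.8% of all genes were called in those fits. ICAT replicates 1 and 3 gave the widest changes. With the replicate number as a block, the counts up and down were 3 and 16 in beta-catenin cells, 9 and 6 in ICAT cells, and 2 and 22 between the lines. In that order 36.3%, 38.4% and 41.9% of all genes tested were called with that block, against 34.9%, 37.2% and 40.4%. That block added Trib3 and Ppp1r15a in beta-catenin cells, Psat1, Aldh18a1 and Cars in ICAT cells and Gars between the lines, and removed none. The other settings moved no count by over 1.5 times. Causes were not tested beyond the fewer arrays or genes that a setting itself leaves. With 3 arrays per group and the wider ICAT spread, small ICAT differences were not resolved, and the deposited values give no signal over background.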
